A study of Mus musculus with 6 samples.

Results

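The 10 genes described here encode growth factors that act on hepatocytes and the receptors that bind them. They are the epidermal growth factor (EGF) family ligands *Tgfa*, *Areg*, *Hbegf* and *Ereg*, hepatocyte growth factor (*Hgf*), stem cell factor (*Kitl*), and the receptors *Egfr*, *Erbb2*, *Erbb3* and *Met*. They were chosen by name, although with earlier results of these data known, and make up 10 of the 41388 genes of the deposited table. All 10 were found through their Ensembl identifiers and GENCODE M21 symbols, and all 10 had a mean of at least 0.5 RPKM (reads per kilobase of exon and per size of the library) and were tested.

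Primary hepatocytes of the mouse strain C57BL/6J, freed from the liver with collagenase and cultured overnight in medium with serum, received an adenovirus. For 3 libraries the virus encoded β-galactosidase (β-gal), a bacterial enzyme that served as the control (replicates 1, 2 and 3), and for 3 it encoded *Aloxe3*, an epidermis-type lipoxygenase (replicates 7, 8 and 9). Poly-A RNA was collected 24 h later and sequenced in 6 libraries of 25521908 to 32431318 counted reads. Both groups thus carried a virus, and uninfected cells were not analysed here. The promoter that drove the transgene, and whether libraries came from separate animals, are not given in the sources used here, so that p-values measure the spread between these libraries, which may be technical. The targeted gene checked the labels: *Aloxe3* was at 1.74 to 2.06 RPKM in hepatocytes overexpressing β-gal and at 42.3 to 56.3 RPKM in *Aloxe3*-overexpressing hepatocytes. Of 12 hepatocyte markers, 11 reached a mean of 0.5 RPKM. *Alb*, the gene for albumin, was at 4485 RPKM over all libraries. *Apob* (244 RPKM), *Apoa1* (235 RPKM), *Ahsg* (220 RPKM), *Ttr* (112 RPKM), *Trf* (105 RPKM), *Serpina1a* (50.3 RPKM) and *Hnf4a* (27.2 RPKM) followed. *Cyp2e1* (2.28 RPKM), *Asgr1* (1.76 RPKM), *Cps1* (1.24 RPKM) and *Tat* (0.428 RPKM) were low.

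EGF family ligands are made as precursors in the cell membrane, and proteases of the ADAM family cut them free to bind EGFR on the same or a neighboring cell. ERBB2 has no known ligand of its own and pairs with other family members, and ERBB3, which has little kinase activity, binds neuregulins. HGF, which in the liver comes mainly from cells other than hepatocytes, binds MET, and stem cell factor binds the receptor KIT. EGFR and MET are the receptors through which hepatocytes receive the main signals to divide when the liver regenerates.

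To show the start regions behind the levels below, promoter sequences were taken from RefSeq on GRCm38.p6 for the ligand and the receptor with the highest levels, *Areg* and *Egfr*, and for *Kitl*, the member with the smallest p. The first run is the 250 bases before the *Areg* start, chr5:91139349-91139598, plus strand, with the cyclic AMP response element TGACGTCA and the TATA box TATAAA in capitals. The second is the 250 bases before the *Egfr* start, chr11:16751953-16752202, plus strand, with a GC box (GGGCGG, here read on the minus strand) in capitals. The third is 30 bases of *Kitl*, chr10:100015775-100015804, plus strand, from -46 to -17 of the RefSeq start, with a pair of GC boxes that overlap by 2 bases and a TATA box in capitals. GENCODE M21 starts *Kitl* further upstream, at 100015630, so that these 30 bases lie before the RefSeq start but inside the gene body, in the first exon, of that annotation.
Areg: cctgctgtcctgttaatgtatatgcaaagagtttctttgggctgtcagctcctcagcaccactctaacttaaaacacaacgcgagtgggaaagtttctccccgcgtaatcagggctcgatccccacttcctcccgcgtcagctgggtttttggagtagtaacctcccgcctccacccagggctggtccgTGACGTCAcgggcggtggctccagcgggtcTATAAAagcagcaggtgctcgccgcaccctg
Egfr: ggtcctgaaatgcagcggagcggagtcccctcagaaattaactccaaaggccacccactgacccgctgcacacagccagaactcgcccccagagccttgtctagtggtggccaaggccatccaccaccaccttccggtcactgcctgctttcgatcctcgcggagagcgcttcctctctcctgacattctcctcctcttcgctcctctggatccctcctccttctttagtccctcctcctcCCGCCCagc
Kitl: cGGGCGGGCGGgagggagctgTATAAAaag

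RefSeq windows, from 250 bases before to 50 after a start, were at hand for 7 of the 10 genes, with 2 windows for *Hgf*, and were searched on both strands for 5 motifs. The response element TGACGTCA was in 1.79% of all 32851 windows and, among the members, in that of *Areg* alone, with its first base at -61. TATAAA, found in 13.62% of windows, began at -31 in *Areg* and at -25 in *Kitl*. The AP-1 motif TGANTCA, in 7.81% of windows, was present among the members in *Met* alone, at -54. GGGCGG (35.66% of windows) was in *Tgfa*, *Areg*, *Kitl*, *Egfr* and *Met*, and CCAAT (37.41%) in *Hgf* and *Erbb2*. Of these 7 genes, 6 had a window with a GC content above the median of 52.7% over all windows, up to 75.7% in *Met*, and both windows of *Hgf* were below it at 51.3%. These matches describe the letters only.

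Per length, *Egfr*, *Met* and the EGF family ligands *Areg*, *Tgfa* and *Hbegf* had the highest levels of the 10 genes in both groups, and *Ereg*, *Kitl* and *Hgf* the lowest. In hepatocytes overexpressing β-gal, *Egfr* had the highest mean level, at 44.4 ± 1.7 RPKM (SD, n = 3). Its mean over all 6 libraries, 44.9 RPKM, was above that of 90.5% of all tested genes. *Areg* followed at 36.7 ± 5.5 RPKM, *Met* at 29.9 ± 0.68 RPKM and *Tgfa* at 23.6 ± 1.4 RPKM. *Hbegf* was at 10.8 ± 1.8 RPKM. The ranges of *Egfr* and *Areg* overlapped among the β-gal libraries, whereas *Areg*, *Met*, *Tgfa* and *Hbegf* were each separated from the next. *Erbb3* (3.99 ± 0.09 RPKM) and *Erbb2* (2.91 ± 0.17 RPKM) came next. *Ereg* (1.13 ± 0.2 RPKM), *Kitl* (0.947 ± 0.13 RPKM) and *Hgf* (0.925 ± 0.055 RPKM) were lowest, with overlapping ranges of neighbors. In *Aloxe3*-overexpressing hepatocytes the order was the same except that *Kitl* lay above *Ereg*, and the ranges of neighbors did not overlap.

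**Figure D1:**
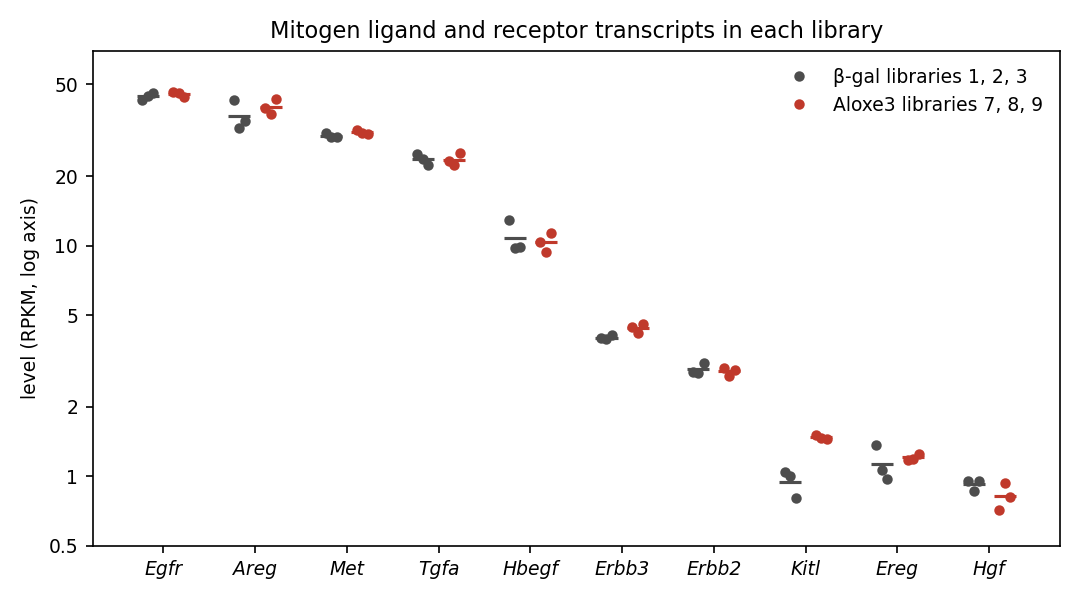
Level of each gene in RPKM (log axis) in the 3 β-gal libraries (grey) and the 3 *Aloxe3* libraries (red), with a bar at the group mean. Levels run from 0.711 RPKM (*Hgf*) to 46.5 RPKM (*Egfr*), and the groups are apart for *Kitl* and *Erbb3*.

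Across the 10 genes, 0 passed the threshold of an adjusted p under 0.05 (limma, Benjamini-Hochberg over all 12693 tested genes), against 0.394% of all tested genes. At an unadjusted p under 0.05 there were 2, *Kitl* and *Erbb3*, both higher in *Aloxe3*-overexpressing cells, against 12.7% of all tested genes. The same 2 genes were higher in every *Aloxe3* library than in every β-gal library, as were 11.2% of all tested genes. None of the 10 was lower without overlap, against 8.71% of all tested genes, and in 8 the groups overlapped. A count of 2 among 10 genes is near these background shares and is not a result about the group. The median log2 fold change of the 10 was 0.04 (6 positive and 4 negative, range -0.08 to 0.35), beside a median of 0.0049 and 52.4% positive over all tested genes. All log2 fold changes are *Aloxe3* minus β-gal, computed on log2(RPKM + 1), so that they are smaller than the ratio of RPKM values for genes of low level.

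**Figure D2:**
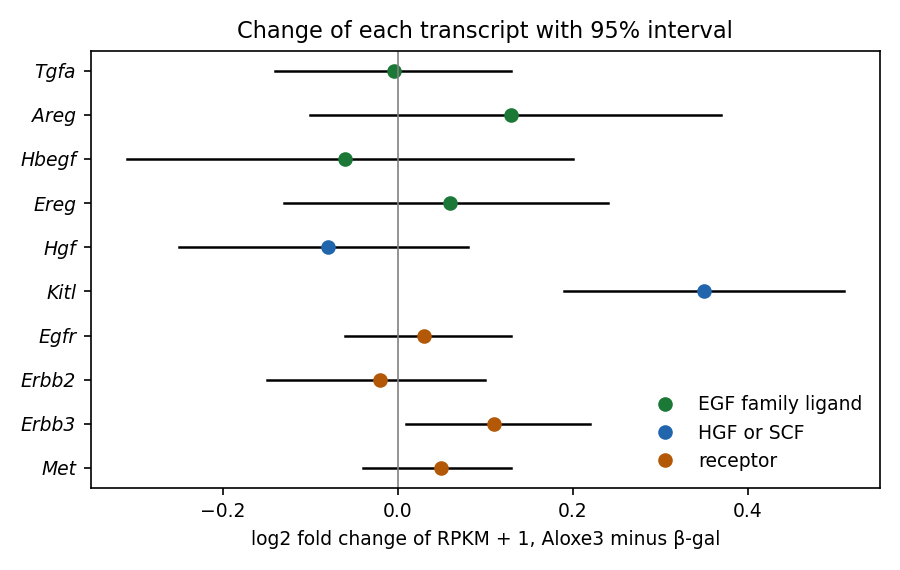
Log2 fold change of RPKM + 1, *Aloxe3* minus β-gal, for each gene (point, colored by role) with its 95% interval from limma (line). The intervals of *Kitl* (0.19 to 0.51) and *Erbb3* (0.01 to 0.22) lie above 0, before adjustment over all genes, and the other 8 span 0.

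Of the ligands, *Tgfa*, which encodes transforming growth factor α, lies at chr6:86195223-86275719 on the plus strand. It was at 25.0, 23.7 and 22.3 RPKM in β-gal libraries 1, 2 and 3 and at 23.3, 22.3 and 25.1 RPKM in *Aloxe3* libraries 7, 8 and 9. The groups overlapped, and both means were 23.6 RPKM. The log2 fold change of -0.0038 had a 95% interval from -0.14 to 0.13 (SE 0.057, adjusted p = 0.986 with limma).

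*Areg*, which encodes amphiregulin, lies at chr5:91139599-91148432 on the plus strand and was the most abundant EGF family ligand per length. Its level was 42.9, 32.4 and 34.6 RPKM in the β-gal libraries and 39.4, 37.3 and 43.3 RPKM in the *Aloxe3* libraries. The first β-gal library was above 2 of the 3 *Aloxe3* libraries. On the log2 scale the difference was 0.13 (95% interval -0.1 to 0.37, SE 0.1, adjusted p = 0.622 with limma), and with 1 library left out it ranged from 0.05 (without β-gal replicate 2) to 0.25 (without β-gal replicate 1), and was not called in any of these fits. It was 0.07 without *Aloxe3* replicate 9.

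*Hbegf*, which encodes heparin-binding EGF-like growth factor, was at 12.9, 9.73 and 9.86 RPKM in the β-gal libraries and at 10.4, 9.34 and 11.3 RPKM in the *Aloxe3* libraries. β-gal replicate 1 was the highest of the 6 libraries. The log2 fold change was -0.06 (95% interval -0.31 to 0.2, adjusted p = 0.869 with limma) and changed sign to 0.07 without that library.

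*Ereg*, which encodes epiregulin and lies at chr5:91074622-91093646 on the plus strand, was at 1.36, 1.06 and 0.973 RPKM in the β-gal libraries and at 1.18, 1.19 and 1.25 RPKM in the *Aloxe3* libraries. The 3 *Aloxe3* libraries fell inside the range of the β-gal libraries. Its log2 fold change was 0.06 (95% interval -0.13 to 0.24, adjusted p = 0.803 with limma), and between 0.0032 (without β-gal replicate 3) and 0.13 (without β-gal replicate 1) with 1 library left out. *Ereg* and *Areg* are neighbors in a cluster of EGF family genes on chromosome 5, with *Epgn* (epigen) before *Ereg* and *Btc* (betacellulin) after *Areg*. The gap from *Ereg* to *Areg* was 46.0 kb, yet the RPKM of *Areg* was 30.6 to 35.6 times that of *Ereg* in the 6 libraries. *Epgn*, 39.4 kb on the other side of *Ereg*, was at 0.0223 to 0.0935 RPKM, from 1 to 5 reads per library.

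The summed level of the 4 EGF family ligands was 82.1, 66.9 and 67.7 RPKM in the β-gal libraries and 74.3, 70.2 and 80.9 RPKM in the *Aloxe3* libraries. The groups overlapped in this sum. *Areg* made up 52.2%, 48.5% and 51.1% of it in the β-gal libraries and 53.1%, 53.2% and 53.5% in the *Aloxe3* libraries. *Hbegf* made up 15.7%, 14.5% and 14.6%, and 13.9%, 13.3% and 14.0%. The *Areg* share was thus higher, and the *Hbegf* share lower, in every *Aloxe3* library than in every β-gal library, differences that were noticed in the values and not tested. *Tgfa* made up 30.4% to 35.4% and *Ereg* 1.44% to 1.69%, with overlapping groups. The 4 ligands were highest together in 1 library of each group. Within the β-gal group, replicate 1 was the highest for 4 of 4 ligands, as it was for 32.2% of all tested genes, and within the *Aloxe3* group replicate 9 was the highest for 4 of 4, as it was for 28.8%. The spread of *Areg* among the β-gal libraries, a coefficient of variation of 15.1%, was well above the at most 2.71% that counting error alone gives for its reads, and that of *Hbegf* was 16.6% against at most 3.55%. Among the *Aloxe3* libraries, *Areg* (7.5% against at most 2.76%), *Tgfa* (6.0% against 1.92%) and *Hbegf* (9.42% against 3.87%) were also above it. *Ereg* was not (3.28% against at most 8.56%), so its highest *Aloxe3* library may reflect counting error alone. The 4 receptors did not share this pattern. β-gal replicate 3 was the highest for 3 of them, as it was for 4448 of the 12693 tested genes. *Aloxe3* replicate 7 was also the highest for 3, as it was for 4518 tested genes. What set the ligands of β-gal replicate 1 and *Aloxe3* replicate 9 apart was not tested.

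**Figure D3:**
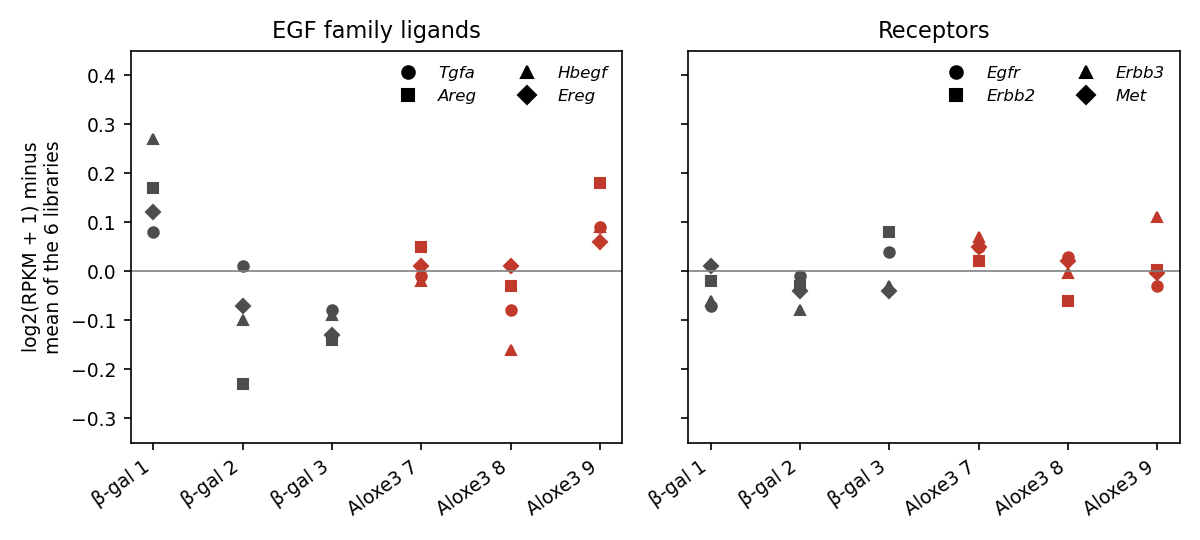
Deviation of log2(RPKM + 1) from the mean of the 6 libraries, for each EGF family ligand (left) and receptor (right) in each β-gal (grey) and *Aloxe3* (red) library. All 4 ligands are above 0 in β-gal 1 and *Aloxe3* 9, while the receptors stay between -0.08 and 0.11. *Tgfa* also stays within that range, between -0.08 and 0.09.

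Of the other ligands, *Hgf* (chr5:16553495-16620152, plus strand) was low. It was at 0.956, 0.862 and 0.957 RPKM in the β-gal libraries and at 0.711, 0.931 and 0.81 RPKM in the *Aloxe3* libraries, and the groups overlapped. Its log2 fold change was -0.08 (95% interval -0.25 to 0.08, adjusted p = 0.653 with limma), and between -0.13 and -0.04 with 1 library left out. With at least 50 to 85 reads per library, counting error alone gives a coefficient of variation of at most 11.2% in the β-gal group, where 5.93% was observed, and at most 12.8% in the *Aloxe3* group, where 13.5% was observed. These are upper limits because reads of *Hgf* are known up to a common factor. *Hgfac*, the secreted protease that activates the HGF precursor and is made by hepatocytes, was by contrast at 58.4 ± 1.4 RPKM in the control group and 58.1 ± 3.7 RPKM in the *Aloxe3* group (SD, n = 3).

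Markers of stellate cells and fibroblasts, which make HGF in the liver, were low: 3 of the 15 listed reached 0.5 RPKM, the highest was the collagen gene *Col1a1* at 2.32 RPKM, and *Lrat*, a defining stellate cell gene, was listed at 0 in every library. Their summed level was 5.49 to 5.95 RPKM in the β-gal libraries and 5.36 to 5.9 RPKM in the *Aloxe3* libraries. Endothelial markers (9 of 12 at 0.5 RPKM or more, led by *Cdh5*) summed to 43.4 to 49.4 RPKM and 43.1 to 48.7 RPKM. In bulk samples such as these, fewer cells of a type and less RNA per cell cannot be told apart.

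*Kitl* (chr10:100015630-100100416, plus strand), whose product is also known as SCF and acts on cells that carry KIT, had the smallest p of the 10 genes. Its level was 1.04, 1.0 and 0.804 RPKM in the β-gal libraries and 1.51, 1.47 and 1.45 RPKM in the *Aloxe3* libraries. Every *Aloxe3* library was above every β-gal library, and the ratio of the means was 1.56. An exact permutation test gave a two-sided p of 0.1, below which 3 libraries against 3 cannot go. This gave a log2 fold change of 0.35 (95% interval 0.19 to 0.51, SE 0.067), and the adjusted p of 0.106 with limma did not pass the threshold. *Kitl* ranked 113 of the 12693 tested genes by p. The call depended on the method. With voom in limma on the reads derived from the RPKM values, the log2 fold change came to 0.64 with an SE of 0.11 (adjusted p = 0.00484). A pseudocount of 0.1 gave a similar 0.6 with an SE of 0.12 but no call (adjusted p = 0.129 with limma). Over the alternatives other than voom the adjusted p was between 0.08 and 0.326.

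The difference in *Kitl* rested on 137 to 193 reads per β-gal library and 221 to 258 per *Aloxe3* library, known up to a common factor. Stellate and endothelial marker sums overlapped between the groups, as given above. The summed Kupffer cell and macrophage markers did not: they were at 163 to 170 RPKM in the β-gal libraries and at 144 to 158 RPKM in the *Aloxe3* libraries. Of these, 9 of 12 reached 0.5 RPKM, and *Cd68* alone had a mean of 141 RPKM. The Kupffer cell genes *Clec4f*, *Vsig4* and *Timd4* were near 0, at most 0.102 RPKM. The remaining genes of this list had means from 0.653 RPKM (*Cd5l*) to 7.72 RPKM (*Lyz2*). Without *Cd68* the sums overlapped, at 14.8 to 21.9 RPKM and 14.8 to 18.0 RPKM. Cholangiocyte markers, led by *Spp1* with a mean of 1521 RPKM, summed to 1528 to 1610 RPKM and 1596 to 1734 RPKM and overlapped. Lymphocyte and mast cell markers, 0 of 11 of which reached 0.5 RPKM, summed to at most 0.301 RPKM, with *Ptprc* the highest. The part of these markers in the *Kitl* difference was not tested. *Kit*, its receptor, was at 2.66 ± 0.23 RPKM in the control group and 2.66 ± 0.2 RPKM in the *Aloxe3* group (SD, n = 3), and the 95% interval of its log2 fold change was -0.15 to 0.15.

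By Euclidean distance between centered log2(RPKM + 1) values over the 6 libraries, *Rbl1* (distance 0.0964), *Mcm6* (0.109) and *E2f1* (0.114) had the pattern nearest to *Kitl* among 12692 genes. Genes picked in this way share the group difference of *Kitl* by the selection itself. Their differences are therefore no separate evidence, and a link to *Kitl* was not tested. *Rbl1*, which encodes the pocket protein p107, rose from 3.41 ± 0.15 to 4.58 ± 0.12 RPKM (SD, n = 3; adjusted p = 0.0332 with limma). *Mcm6*, a subunit of the replicative helicase, rose from 34.1 ± 1.9 to 42.6 ± 1.2 RPKM (adjusted p = 0.0498 with limma). *E2f1*, a transcription factor of the cell cycle, was at 9.53 ± 0.59 and 11.7 ± 0.4 RPKM and did not pass (adjusted p = 0.101 with limma).

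Of the receptors, *Egfr* (chr11:16752203-16918158, plus strand) was at 42.7, 44.5 and 46.1 RPKM in the β-gal libraries and at 46.5, 45.9 and 43.9 RPKM in the *Aloxe3* libraries. The groups overlapped. With 13144 to 16338 reads per library this was the most deeply covered of the 10 genes, and the log2 fold change of 0.03 had a 95% interval of only -0.06 to 0.13 (adjusted p = 0.778 with limma). *Met*, the HGF receptor (chr6:17463800-17573980, plus strand), was at 30.7, 29.5 and 29.6 RPKM and at 31.6, 30.9 and 30.4 RPKM. One *Aloxe3* library lay below the highest β-gal library, so the groups overlapped here too. Its log2 fold change was 0.05 (95% interval -0.04 to 0.13, adjusted p = 0.612 with limma), again with a narrow interval.

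*Erbb2* (chr11:98412470-98437716, plus strand), the co-receptor, was at 2.82, 2.81 and 3.11 RPKM in the β-gal libraries and at 2.94, 2.72 and 2.88 RPKM in the *Aloxe3* libraries. The groups overlapped, with a log2 fold change of -0.02 (95% interval -0.15 to 0.1, adjusted p = 0.893 with limma). *Egfr* exceeded *Erbb2* by 14.8 to 16.9 times in RPKM across the libraries.

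*Erbb3* (chr10:128567523-128589652, minus strand), the neuregulin receptor, was at 3.97, 3.92 and 4.09 RPKM in the β-gal libraries and at 4.44, 4.18 and 4.59 RPKM in the *Aloxe3* libraries. Every *Aloxe3* library was above every β-gal library, although by a small margin (ratio of means 1.1, and again a two-sided p of 0.1 by exact permutation). The log2 fold change of 0.11 (SE 0.047, 95% interval 0.01 to 0.22) gave an adjusted p of 0.373 with limma and did not pass, and over all alternatives it was between 0.09 and 0.14. *Egfr* exceeded *Erbb3* by 9.56 to 11.4 times in RPKM. *Egfr* shares 15272 bases of its gene body with the antisense gene *Egfros* (mean 0.814 RPKM), and the end of *Erbb2* overlaps 9 bases of *Mien1* (44.7 RPKM) on the other strand. These overlaps are of gene bodies, and exons were not compared. The paper counted only reads that were unique and unambiguous, and whether strand was used is not given in the sources used here. How reads in such overlaps were assigned is therefore not known.

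The remaining partners of these receptors were taken from lists of pathway genes. Of the 8 other ErbB ligands and receptors, 2 were tested. *Nrg1*, a neuregulin that binds ERBB3, was at 9.21, 9.31 and 9.08 RPKM in the β-gal libraries and at 9.97, 10.1 and 12.2 RPKM in the *Aloxe3* libraries. The groups did not overlap, and *Aloxe3* replicate 9 was the highest, but the log2 fold change of 0.2 (SE 0.07) did not pass (adjusted p = 0.318 with limma). *Btc* was at 5.0 ± 0.77 and 4.94 ± 0.47 RPKM (SD, n = 3), with overlapping groups. *Nrg4* lay just below the level for testing, at 0.437 ± 0.065 RPKM in the control group and 0.561 ± 0.044 RPKM in the *Aloxe3* group (SD, n = 3), again without overlap. *Egf* itself was nearly absent, at 0.103 to 0.156 RPKM from 13 to 24 reads per library. *Erbb4*, another neuregulin receptor, had 0 to 2 reads per library, and *Nrg3* was listed at 0 in all of them.

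Among 14 partners of the HGF and SCF axes (HGF-activating proteases, their inhibitors, the plasminogen system and *Kit*), 12 were tested and 0 passed. The smallest p was that of *Cd44*, a hyaluronan receptor that can act as a co-receptor of MET. It was at 41.5 ± 1.7 RPKM in the control group and 38.0 ± 0.89 RPKM in the *Aloxe3* group (SD, n = 3; log2 fold change -0.13, adjusted p = 0.291 with limma). Every *Aloxe3* library was below every β-gal library.

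Ligand shedding and trafficking genes, which free the EGF family ligands or carry the receptors, gave 0 calls among 18 tested of 21, with 11 positive and 7 negative log2 fold changes between -0.17 and 0.1. *Adam8*, a membrane protease, was at 6.94 ± 0.23 and 6.16 ± 0.42 RPKM without overlap, and *Tmed9*, a cargo receptor of the secretory pathway, at 104 ± 3.8 and 92.9 ± 7.2 RPKM with overlap (SD, n = 3; adjusted p = 0.321 and 0.324 with limma). The adaptors and kinases downstream of the receptors gave 0 calls among 32 tested of 33, with 17 positive and 15 negative values between -0.11 and 0.11. *Ptpn11*, the phosphatase SHP2 that relays signals from both EGFR and MET, was at 58.8 ± 0.36 and 55.2 ± 1.6 RPKM (SD, n = 3; adjusted p = 0.348 with limma). *Rps6ka3*, the ribosomal S6 kinase RSK2, was at 9.08 ± 0.42 and 9.89 ± 0.25 RPKM (adjusted p = 0.358 with limma). Neither pair of groups overlapped.

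Feedback inhibitors of the receptors, such as the Sprouty, Dusp and Lrig families, gave 0 calls among 27 tested of 28 (16 positive, 11 negative). The smallest p values were those of *Dusp4*, a phosphatase of MAP kinases, at 44.4 ± 2.7 and 40.0 ± 1.5 RPKM, and *Ptpn1*, the tyrosine phosphatase PTP1B, at 16.0 ± 0.11 and 15.1 ± 0.26 RPKM (SD, n = 3; adjusted p = 0.321 and 0.397 with limma). Transcripts that mitogens induce, such as *Myc* and the immediate early genes, gave 0 calls among 23 tested of 24. Of their log2 fold changes 17 were positive and 6 negative, beside 52.4% positive over all tested genes, with a range of -0.18 to 0.21 and a median of 0.04. *Hmga2*, a chromatin protein of growing cells, was at 17.5 ± 0.59 and 19.6 ± 0.75 RPKM (SD, n = 3; log2 fold change 0.16, adjusted p = 0.249 with limma). *Etv5*, an ETS factor downstream of receptor tyrosine kinases, was at 3.22 ± 0.15 and 3.72 ± 0.2 RPKM (log2 fold change 0.16, adjusted p = 0.3 with limma). Both were higher in every *Aloxe3* library than in every β-gal library. *Ccn2*, next in this list by p, was lower in every *Aloxe3* library, at 244 ± 18 and 215 ± 9.9 RPKM (SD, n = 3). Its log2 fold change was -0.18 (adjusted p = 0.3 with limma).

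**Figure D4:**
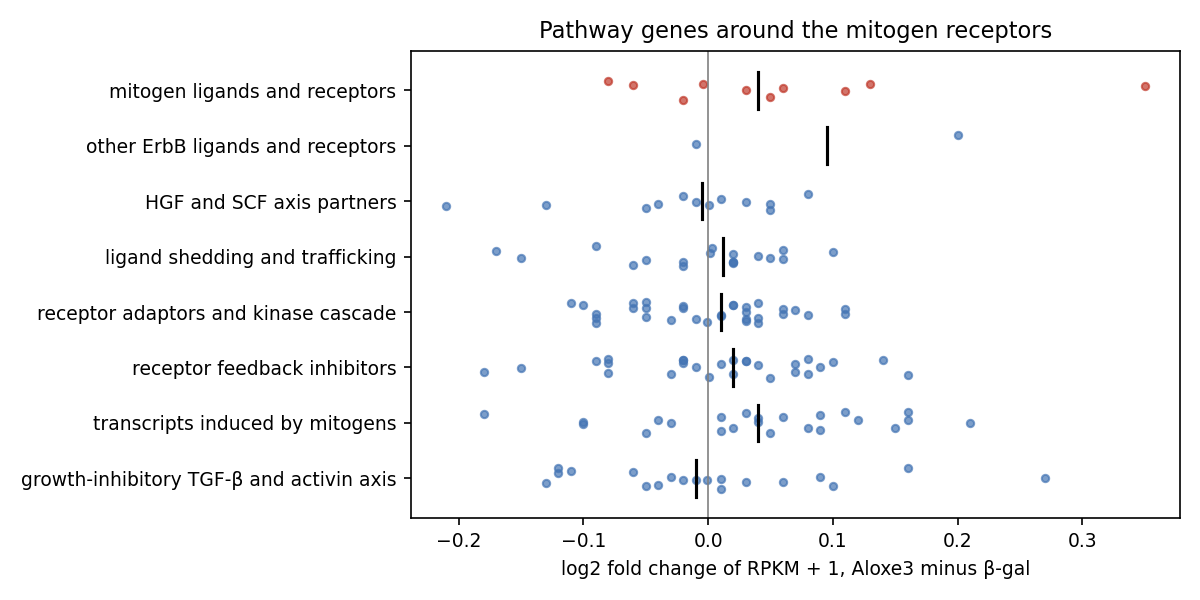
Log2 fold change of RPKM + 1, *Aloxe3* minus β-gal, for the 10 mitogen ligands and receptors (red) and the tested genes of each pathway list (blue), with a bar at each median. *Kitl*, at 0.35, is the point farthest from 0, and the highest point of the other lists is at 0.27.

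Over all 7 pathway lists together, 132 of 148 genes were tested and 0 passed, and the median log2 fold change was 0.01. At an unadjusted p under 0.05, 7 were higher and 11 lower, together 13.6%, against 12.7% of all tested genes. Groups did not overlap in 13 genes that were higher (9.85%, against 11.2% of all tested genes) and 15 that were lower (11.4%, against 8.71%) in *Aloxe3*-overexpressing hepatocytes, shares near the background.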

How the data were processed

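Single reads of 50 bases were aligned with STAR 2.0.4b and counted per gene with featureCounts 1.4.5 on GRCm38.p2, per the submitters' processing notes, and the authors deposited RPKM values for 41388 Ensembl genes; how counts became RPKM is not described. The values were used as deposited. Groups came from the sample titles, and 0 value columns belonged to no sample. Symbols and coordinates are from GENCODE M21 (GRCm38), which 40340 identifiers matched. The RPKM values of a gene move in steps of 1 read, and these steps gave library sizes of 25521908 to 32431318 reads (99.92% in listed genes). Reads per gene followed with the M21 exon length where it gave whole reads within 0.02, as for *Egfr*, *Erbb2*, *Erbb3* and *Met*, and otherwise with the smallest length that did, so that reads of the other 6 members are known up to a common factor. One read per kb was worth 0.0308 to 0.0392 RPKM.

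Genes were kept where their mean over all libraries reached 0.5 RPKM, which left 12693, and log2(RPKM + 1) was fitted in limma (version 3.58.1, R version 4.3.3; linear model, moderated by empirical Bayes with a mean-variance trend, two-sided, Benjamini-Hochberg at 0.05, *Aloxe3* against β-gal, n = 3 each, no covariate). The scripts were tested on simulated data. Figures and tables used Python 3.11.15. Alternatives were a pseudocount of 0.1, no filter, a filter at 5 RPKM, a common median, quantile normalization, a fit without the trend, voom on the derived reads, and each library left out in turn.

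The members, lists and tests were chosen with earlier results of these data known. Named are *Aloxe3*, the members, *Egf*, *Btc*, *Nrg1*, *Nrg4*, *Erbb4*, *Kit* and *Hgfac*, in each list the genes past the threshold and the 2 tested genes with the smallest p, the highest gene of each marker list, and the 3 genes nearest to *Kitl*; 1 gene that this rule names is not reported here. *Epgn*, *Nrg3*, *Egfros*, *Mien1*, *Lrat*, *Cyp2e1*, *Asgr1*, *Tat*, *Trf*, *Cps1*, *Ahsg*, *Serpina1a*, *Apoa1*, *Apob*, *Hnf4a*, *Clec4f*, *Vsig4*, *Timd4*, *Cd5l*, *Lyz2* and *Ccn2* were named after their values were seen. Coefficients of variation from reads cover counting error only. *Cyr61* and *Ctgf* are *Ccn1* and *Ccn2* in the annotation.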

Additional observations from a re-analysis of the deposited data

How the results depend on the processing

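With 3 libraries per group, the number of genes called over the whole table was unstable: 50 in the reported fit, 7 with no filter on low values, 173 with voom on the derived reads, and 6 to 19 with 1 library left out (6 without *Aloxe3* replicate 7, 19 without *Aloxe3* replicate 9). The cause was not tested, although leaving out a library leaves fewer samples. Of the 10 mitogen ligands and receptors 0 were called under every alternative except voom, which called 1, *Kitl*. The pathway lists gave 0 calls under all alternatives, and *Aloxe3* was called under all of them, with a log2 fold change of 3.93 to 4.61.

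Values near 0 changed sign. *Tgfa* went from -0.0038 to 0.0038 with quantile normalization and ranged from -0.05 to 0.03 with 1 library left out (0.03 without β-gal replicate 1, 0.0023 without *Aloxe3* replicate 7, 0.03 without *Aloxe3* replicate 8). *Hbegf* ranged from -0.12 to 0.07 (0.07 without β-gal replicate 1, 0.01 without *Aloxe3* replicate 8), and *Erbb2* from -0.04 to 0.01 (0.01 without β-gal replicate 3, 0.0011 without *Aloxe3* replicate 8). The other 7 kept their sign under every alternative that gave a value, *Kitl* between 0.3 and 0.64. The filter at 5 RPKM left out *Ereg*, *Hgf*, *Kitl*, *Erbb2* and *Erbb3*. No paired analysis was possible because the groups share no replicate number (1 to 3 against 7 to 9).

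The depth limits the lowest genes most: *Hgf* rests on 50 to 85 reads per library and *Egf* on 13 to 24, both known up to a common factor. RNA levels do not show how much ligand was cut free or how much receptor was at the surface, and reads were counted per gene, so isoforms of *Kitl* or *Egfr* were not separated.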

Other observations

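The growth-inhibitory side of hepatocyte control, the TGF-β and activin axis, was examined in a list of 21 genes, of which 19 were tested and 0 passed the threshold (limma, adjusted p under 0.05). At an unadjusted p under 0.05, 2 were higher and 3 lower in *Aloxe3*-overexpressing hepatocytes (26.3%, against 12.7% of all tested genes), and 8 log2 fold changes were positive and 11 negative, between -0.13 and 0.27. *Tgfb1*, which encodes a cytokine that halts hepatocyte division, was at 24.9, 22.0 and 24.2 RPKM in the β-gal libraries and at 28.4, 25.0 and 33.3 RPKM in the *Aloxe3* libraries. The groups did not overlap, although only just, and the difference of 0.27 on the log2 scale did not pass (SE 0.097, adjusted p = 0.326 with limma). *Fst*, which encodes follistatin, the binding protein that holds activin inactive, was at 28.4, 28.2 and 26.2 RPKM and at 26.4, 24.4 and 24.4 RPKM. One *Aloxe3* library lay above the lowest β-gal library, and the log2 fold change was -0.13 (adjusted p = 0.325 with limma).

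Of 12 hepatocyte markers 11 were tested, with 7 positive and 4 negative log2 fold changes, and at an unadjusted p under 0.05 there were 3 higher and 3 lower (54.5%, against 12.7% of all tested genes). *Ttr*, which encodes the thyroid hormone carrier transthyretin, was the 1 that passed the threshold. It fell from 124 ± 6.5 to 100 ± 1.1 RPKM (SD, n = 3; log2 fold change -0.3, adjusted p = 0.0448 with limma). *Serpina1a* (52.2 ± 1.1 and 48.3 ± 0.31 RPKM) and *Apoa1* (243 ± 2.9 and 227 ± 8.5 RPKM) were lower in every *Aloxe3* library than in every β-gal library and did not pass (adjusted p = 0.262 and 0.349 with limma). In the other direction, *Ahsg* (204 ± 6.9 and 236 ± 12 RPKM), *Trf* (100.0 ± 1.5 and 110.0 ± 4.6 RPKM) and *Cps1* (0.985 ± 0.069 and 1.5 ± 0.18 RPKM) were higher in every *Aloxe3* library than in every β-gal library and did not pass (adjusted p = 0.18, 0.264 and 0.161 with limma). The summed level of the hepatocyte markers was 5504 to 5549 RPKM in the β-gal libraries and 5353 to 5511 RPKM in the *Aloxe3* libraries, with overlap. Most of this sum was *Alb*. Without it the sums were 994 to 1005 RPKM and 991 to 1015 RPKM and overlapped too.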
